A study of Mus musculus with 12 samples.

Results

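The 9 genes described here encode enzymes of cholesterol synthesis (*Hmgcs1*, *Mvd*, *Idi1*, *Fdps*, *Fdft1*, *Sqle*, *Lss*, *Cyp51* and *Dhcr7*). They were chosen by name, as enzymes of this pathway, and all 9 were found among the 25093 genes of the count table. Cells make cholesterol from acetyl-CoA through mevalonate and isoprenoid intermediates, which are joined into squalene and closed into lanosterol, the first sterol. Transcription of these enzymes is under the control of SREBP2, a membrane-bound transcription factor that is released when sterols in the endoplasmic reticulum are low. Cholesterol itself is a component of cell membranes and a ligand and modifier in Hedgehog signaling, the pathway in which GLI3 acts.

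Satellite cells, the muscle stem cells, were sorted from hindlimb muscles of adult mice and their polyadenylated RNA was sequenced. Quiescent satellite cells (QSCs) came from uninjured muscles of *Pax7*CreERT2/+; *Gli3*+/+; *R26R*YFP mice (*Gli3*+/+, 3 libraries) and *Pax7*CreERT2/+; *Gli3*fl/fl; *R26R*YFP mice (*Gli3*Δ/Δ, 3 libraries), and were gated as α7-integrin+ and CD34+ and negative for CD31, CD45, SCA1 and CD11b. The recombinase is expressed from *Pax7*, so deletion was directed to satellite cells. Both genotypes carried the recombinase and the reporter and received tamoxifen (4 daily injections, then in the diet), and the mice of the study were 2 to 10 months old. Each QSC library combined 2 to 3 mice, and the labels do not say which. The series also holds activated satellite cells (ASCs) from muscles 3 days after cardiotoxin, with 3 libraries per genotype and 1 mouse per library, whose counts per library were not used here. The replicates are separate libraries, and p-values measure the spread between these libraries.

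The 6 QSC libraries held 39556784 to 65750131 estimated counts. *Gli3* itself was counted at 11.2, 9.71 and 9.75 CPM (counts scaled to library size, with TMM factors) in *Gli3*+/+ and at 9.54, 10.5 and 6.25 CPM in *Gli3*Δ/Δ, so the groups overlapped. Exon 8, which the recombinase removes, has no count of its own in the table, and the genotypes rest on the labels. *Pax7*, the defining satellite cell marker, was present in every library, at 798 to 1160 CPM. One *Gli3*+/+ library, replicate 3, stood apart. Its correlations with the other 5 libraries on log2(CPM + 1) over all genes were 0.9831 to 0.9874, where the best correlation of each other library was 0.9917 to 0.9932, and it was the highest library by at least 1.5-fold for 4.01% of the 14696 genes with a mean of at least 1 CPM. Of the 8 satellite cell markers, *Sdc4* (2710 CPM against 891 to 1400 CPM in the others) and *Vcam1* (952 against 515 to 674 CPM) were highest in this library by the widest margins, and *Calcr* (130 against 213 to 263 CPM) was lowest there. The comparisons of the enzymes and of the pathway lists are therefore given with and without it.

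Promoter sequences are shown for 4 genes that span the patterns described below, the first 3 high in *Gli3*+/+ replicate 3 and *Dhcr7* separated by genotype. Each is 300 bases of RefSeq sequence (GRCm38.p6), from 250 bases before to 50 bases after a start of transcription, 5′ to 3′ on the strand of the gene. Capitals mark matches, on either strand, to a sterol regulatory element (TCACNCCAC), the binding site of SREBP, to a CCAAT box (CCAAT), to an Sp1 site (GGGCGG) and to an E-box (CACGTG). The windows lie at chr13:119690101-119690400 (plus strand, *Hmgcs1*), chr13:8885356-8885655 (plus strand, *Idi1*), chr5:4104648-4104947 (minus strand, *Cyp51*) and chr7:143822917-143823216 (plus strand, the first of 3 *Dhcr7* windows).
Hmgcs1: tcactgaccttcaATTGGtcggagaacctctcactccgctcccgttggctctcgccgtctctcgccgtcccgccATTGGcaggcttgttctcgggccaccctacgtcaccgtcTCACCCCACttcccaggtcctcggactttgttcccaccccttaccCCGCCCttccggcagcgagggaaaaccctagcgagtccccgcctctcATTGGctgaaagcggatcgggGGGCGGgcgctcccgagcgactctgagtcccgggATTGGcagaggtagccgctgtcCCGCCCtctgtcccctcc
Idi1: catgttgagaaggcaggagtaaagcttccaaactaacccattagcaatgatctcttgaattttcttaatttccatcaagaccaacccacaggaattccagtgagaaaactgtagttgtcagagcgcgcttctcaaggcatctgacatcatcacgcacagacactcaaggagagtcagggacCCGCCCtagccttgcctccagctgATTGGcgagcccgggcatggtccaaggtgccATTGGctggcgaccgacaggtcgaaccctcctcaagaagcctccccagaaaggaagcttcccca
Cyp51: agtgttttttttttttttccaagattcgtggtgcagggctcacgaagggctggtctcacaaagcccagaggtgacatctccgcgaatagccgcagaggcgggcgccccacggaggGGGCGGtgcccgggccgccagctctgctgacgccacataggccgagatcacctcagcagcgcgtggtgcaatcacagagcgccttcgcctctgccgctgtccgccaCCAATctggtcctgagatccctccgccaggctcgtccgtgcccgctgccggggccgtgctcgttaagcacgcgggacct
Dhcr7: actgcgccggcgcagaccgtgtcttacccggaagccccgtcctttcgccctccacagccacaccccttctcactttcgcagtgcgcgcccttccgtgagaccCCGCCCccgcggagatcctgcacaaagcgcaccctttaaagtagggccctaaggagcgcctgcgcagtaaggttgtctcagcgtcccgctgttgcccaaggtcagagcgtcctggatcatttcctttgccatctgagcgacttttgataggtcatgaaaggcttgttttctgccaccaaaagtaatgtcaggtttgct

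Of the 9 genes, 6 had promoter windows in the RefSeq table, with 8 windows in all. The sterol regulatory element, searched in these letters alone, was found in 1 of the 8, that of *Hmgcs1*, where it starts 137 bases before the start of transcription on the strand of the gene. It was found in 1.24% of the 32851 windows of all genes, and in 0 of the 42 other genes of the pathway lists that had a window. CCAAT boxes were found in 6 of the 8 windows (37.4% of all windows) and Sp1 sites in 7 of the 8 (35.7% of all windows), and each of the 6 genes had both in at least 1 window. Of the 42 other pathway genes with a window, 25 had a CCAAT box, 29 an Sp1 site and 6 an E-box. The counts of genes here take a match in any window of a gene, while the percentages are of single windows. They are therefore not directly comparable. The E-box was found in 1 of the 8, the second *Dhcr7* window, against 7.15% of all windows. These are matches of letters and not measurements of binding, and a window without a match says only that these letters are not in it.

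**Figure D1:**
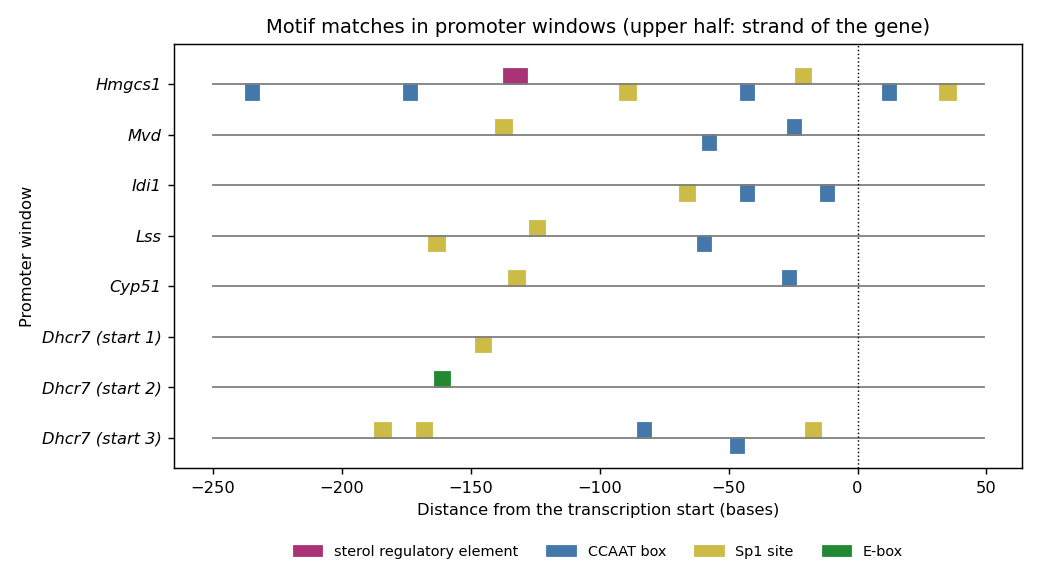
Positions of motif matches in the promoter windows of the enzymes, in bases from the annotated start of transcription (horizontal axis), 1 line per window. The sterol regulatory element appears in the *Hmgcs1* window and CCAAT boxes and Sp1 sites recur in most windows.

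The genes that make the isoprenoid units come first in the pathway. *Hmgcs1*, which makes HMG-CoA (ENSMUSG00000093930.2, GRCm38 chromosome 13, 119690379 to 119708260, plus strand), was counted at 34.1, 27.7 and 77.4 CPM in *Gli3*+/+ replicates 1, 2 and 3 and at 28.4, 45.8 and 35.2 CPM in *Gli3*Δ/Δ replicates 1, 2 and 3. The groups overlapped, and the highest value was that of *Gli3*+/+ replicate 3. The log2 fold change of *Gli3*Δ/Δ over *Gli3*+/+ was −0.35 (SE 0.36, 95% interval −1.16 to 0.47, adjusted p = 0.919 by the quasi-likelihood test of edgeR, after Benjamini and Hochberg over all genes). In these bulk samples fewer cells of a type and less RNA per cell cannot be told apart.

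*Mvd*, which decarboxylates mevalonate diphosphate to isopentenyl diphosphate (ENSMUSG00000006517.5, chromosome 8, 122433601 to 122443422, minus strand), was the gene of lowest count, at 6.13, 5.35 and 5.13 CPM in *Gli3*+/+ and 4.5, 5.8 and 6.75 CPM in *Gli3*Δ/Δ. Here *Gli3*+/+ replicate 3 was not high, and the groups overlapped, with a log2 fold change of 0.04 (SE 0.22, adjusted p = 0.998 from edgeR). *Idi1*, which isomerizes isopentenyl diphosphate (ENSMUSG00000058258.14, chromosome 13, 8885501 to 8892451, plus strand), was at 13.7, 13.9 and 65.8 CPM in *Gli3*+/+ and 17, 21.9 and 18.9 CPM in *Gli3*Δ/Δ. Each *Gli3*Δ/Δ library lay above *Gli3*+/+ replicates 1 and 2 and far below replicate 3, and the log2 fold change was −0.69 (SE 0.55, 95% interval −1.93 to 0.55, adjusted p = 0.895 from edgeR).

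*Fdps*, which makes farnesyl diphosphate, the branch point to prenylation and ubiquinone (ENSMUSG00000059743.12, chromosome 3, 89093588 to 89101959, minus strand), was at 11.1, 10.6 and 31.2 CPM in *Gli3*+/+ and 12.9, 13.2 and 17.6 CPM in *Gli3*Δ/Δ. It had the pattern of *Idi1*, with a log2 fold change of −0.27 (SE 0.39, adjusted p = 0.943 from edgeR). An annotated gene on the same strand, *Gm43738*, overlaps *Fdps*, so how the reads were shared is uncertain. Shared reads are not particular to *Fdps*. Its estimated counts were whole numbers in 3 of the 6 libraries, and those of *Hmgcs1*, *Idi1* and *Dhcr7* in 0. In each library, 45.32 to 50.96% of all genes had a count that was not whole.

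The squalene and sterol steps follow. *Fdft1*, squalene synthase (ENSMUSG00000021273.10, chromosome 14, 63145150 to 63179578, minus strand), was at 12.7, 14.2 and 28.3 CPM in *Gli3*+/+ and 11, 18.6 and 17.6 CPM in *Gli3*Δ/Δ, with overlap of the groups and a log2 fold change of −0.22 (SE 0.32, adjusted p = 0.943 from edgeR). *Sqle*, squalene epoxidase, a rate-limiting enzyme of the sterol steps (ENSMUSG00000022351.14, chromosome 15, 59315077 to 59331192, plus strand), was at 11.7, 12.5 and 85.9 CPM in *Gli3*+/+ and 16.7, 20.4 and 19.8 CPM in *Gli3*Δ/Δ. It had the widest spread of the 9 genes, 36.7 ± 42.6 CPM in *Gli3*+/+ against 19 ± 2.01 CPM in *Gli3*Δ/Δ (SD, n = 3 libraries each), and a log2 fold change of −0.95 (SE 0.68, 95% interval −2.48 to 0.58, adjusted p = 0.88 from edgeR).

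*Lss*, lanosterol synthase, which closes the sterol rings (ENSMUSG00000033105.12, chromosome 10, 76531588 to 76557138, plus strand), was at 35.6, 30.4 and 40.2 CPM in *Gli3*+/+ and 31.1, 35.6 and 33.9 CPM in *Gli3*Δ/Δ. This was the narrowest interval of the 9, with a log2 fold change of −0.08 (SE 0.15, 95% interval −0.41 to 0.26, adjusted p = 0.96 from edgeR). *Cyp51*, lanosterol 14-alpha-demethylase (ENSMUSG00000001467.5, chromosome 5, 4081145 to 4104746, minus strand), was at 13.8, 14.1 and 56.3 CPM in *Gli3*+/+ and 14.6, 20.4 and 17.1 CPM in *Gli3*Δ/Δ, again with replicate 3 alone high, and the log2 fold change was −0.69 (SE 0.50, adjusted p = 0.88 from edgeR).

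*Dhcr7*, 7-dehydrocholesterol reductase, which makes cholesterol in the last step of one branch (ENSMUSG00000058454.15, chromosome 7, 143823145 to 143848410, plus strand), was the exception. It was counted at 7.87, 8.63 and 9.12 CPM in *Gli3*+/+ and 13.4, 13 and 12.4 CPM in *Gli3*Δ/Δ, so every *Gli3*Δ/Δ library lay above every *Gli3*+/+ library, replicate 3 included. The means were 8.54 ± 0.629 and 12.9 ± 0.509 CPM (SD, n = 3 libraries each). The log2 fold change was 0.60 (SE 0.16, 95% interval 0.25 to 0.95), with an adjusted p of 0.288 from edgeR, above the threshold. DESeq2 gave an adjusted p of 0.0255 and called the gene, and over all alternatives the adjusted p ranged from 0.00474 to 0.658 with the log2 fold change between 0.54 and 0.65. The exact permutation test on CPM gave p = 0.1 (two-sided), the smallest that 3 libraries against 3 allow.

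**Figure D2:**
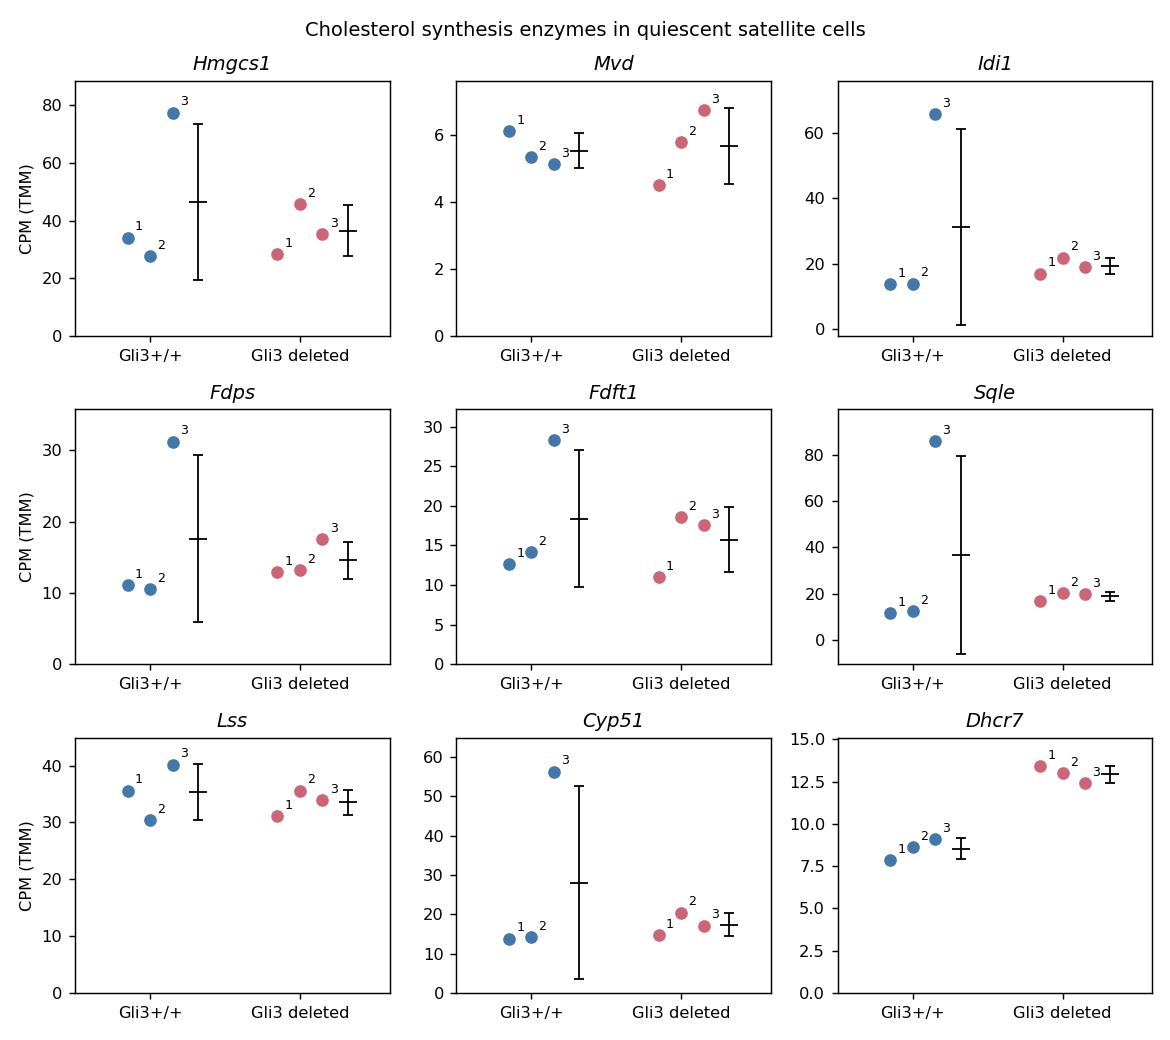
CPM of each of the 9 enzymes (vertical axes, linear, scaled per gene) in the 3 *Gli3*+/+ and 3 *Gli3*Δ/Δ ("Gli3 deleted") QSC libraries, points being libraries and bars the mean with SD. *Gli3*+/+ replicate 3 lies far above the rest for *Idi1*, *Sqle* and *Cyp51*, and the groups are separate for *Dhcr7*.

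With edgeR, 0 of the 9 enzymes were called between the genotypes at an adjusted p below 0.05 with a change of 1.2-fold or more, where 0.351% of all genes were called, 0.187% as higher in *Gli3*Δ/Δ. At an unadjusted p under 0.05 there was 1, *Dhcr7*, which was higher, against 7.11% of all genes in either direction and 3.2% higher. DESeq2 called 1 of the 9 (1.55% of the genes it tested) and limma-voom 0. Groups that did not overlap, with *Gli3*Δ/Δ above, were found for 1 of the 9 and for 7.74% of genes with a mean of at least 1 CPM. The log2 fold change was positive for 2 of the 9 (45% of all genes), and its median was −0.27, against −0.03 over all genes.

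For most of the enzymes, though not for *Dhcr7*, the difference turned on *Gli3*+/+ replicate 3. It was the highest of the 6 libraries for 7 of the 9 enzymes, and by at least 1.5-fold for 6 of them, against 4.01% of genes, while none of the other libraries was highest by that margin for any. Its CPM divided by the median of the other 5 libraries was 5.15 for *Sqle*, 3.86 for *Idi1*, 3.85 for *Cyp51*, 2.42 for *Fdps*, 2.27 for *Hmgcs1* and 2 for *Fdft1*. For the other 3 the ratio was 1.18 (*Lss*), 0.884 (*Mvd*) and 0.736 (*Dhcr7*), within the range from 0.59 to 1.87, the 5th to the 95th percentile of the 14696 genes with a mean of at least 1 CPM. Summed over the 9 enzymes, the libraries held 147, 137 and 399 CPM in *Gli3*+/+ and 150, 195 and 179 CPM in *Gli3*Δ/Δ.

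Without *Gli3*+/+ replicate 3, 8 of the 9 enzymes had a positive log2 fold change, against 48.4% of all genes, and the median was 0.32, against −0.003 over all genes. *Sqle* was then higher in *Gli3*Δ/Δ by 0.65 on the log2 scale (SE 0.16, adjusted p = 0.224 from edgeR) and *Idi1* by 0.48 (SE 0.16, adjusted p = 0.463 from edgeR). *Dhcr7* had 0.65 (adjusted p = 0.236 from edgeR), and *Mvd* was the 1 gene below 0, at −0.01. edgeR still called 0 of the 9 (0.363% of all genes), with 3 at an unadjusted p under 0.05 (*Idi1*, *Sqle* and *Dhcr7*, all higher, against 8% of all genes and 4.12% that were higher), and DESeq2 called 2, *Sqle* (adjusted p = 0.0071 from DESeq2) and *Dhcr7* (adjusted p = 0.00474 from DESeq2), where it called 2.01% of the genes it tested. For 5 of the 9 (*Idi1*, *Fdps*, *Sqle*, *Cyp51* and *Dhcr7*) every *Gli3*Δ/Δ library lay above *Gli3*+/+ replicates 1 and 2, as for 16.5% of genes. This comparison is of 3 libraries with 2, and the library left out was singled out after its values were seen.

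**Figure D3:**
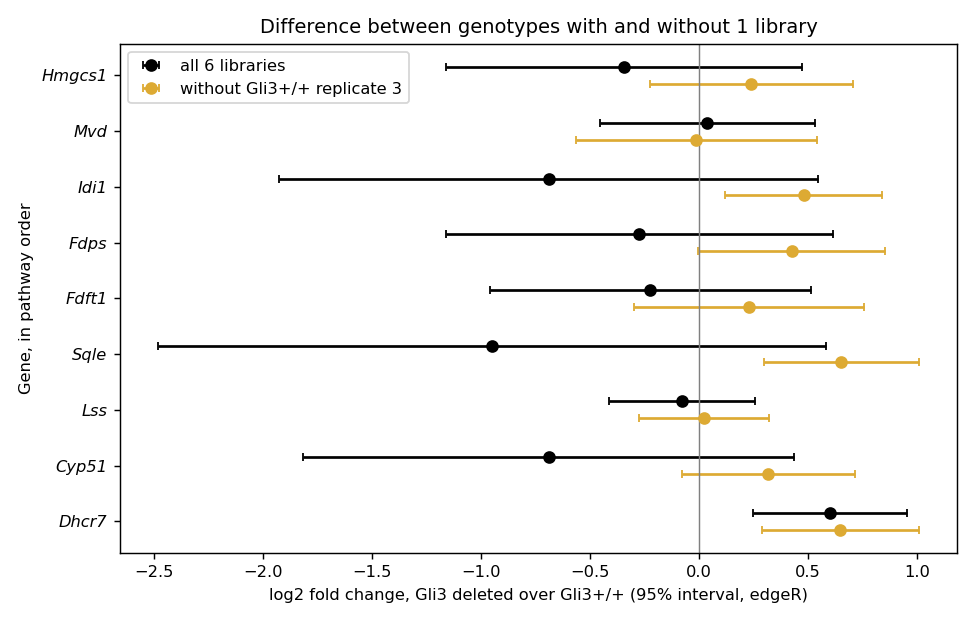
Log2 fold change of *Gli3*Δ/Δ over *Gli3*+/+ QSCs (horizontal axis) with 95% intervals from edgeR, for each enzyme, with all 6 libraries and without *Gli3*+/+ replicate 3. Without that library *Sqle* moves from −0.95 to 0.65, while *Dhcr7* stays between 0.60 and 0.65.

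The 6 enzymes highest in *Gli3*+/+ replicate 3 by at least 1.5-fold also varied together across libraries. They were picked by that library, so their high correlations over all 6 libraries follow in part from the choice. For *Hmgcs1*, *Idi1*, *Fdps*, *Fdft1*, *Sqle* and *Cyp51*, the 15 pairwise Pearson correlations on log2(CPM + 1) over the 6 libraries were 0.865 to 0.997, with a median of 0.931. Over the 5 libraries without *Gli3*+/+ replicate 3 they were 0.353 to 0.971, with a median of 0.733. *Idi1* and *Sqle* were the closest pair, at 0.997 and, without that library, 0.971. Over the 6 libraries *Lss* had correlations of 0.76 to 0.932 with these 6 enzymes. Those of *Mvd* with the other enzymes were −0.225 to 0.209, and those of *Dhcr7* −0.228 to 0.0181. Over the 5 libraries those of *Dhcr7* ran from −0.212 with *Mvd* to 0.924 with *Sqle*, which was also higher in each *Gli3*Δ/Δ library. These are descriptions over few libraries, which share the scaling to library size.

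Among 9508 other genes with a mean of at least 10 CPM, those most like the mean standardized level of the 9 enzymes over the 6 libraries were *Cd3eap* (Pearson r = 0.9944), *Ppan* (0.9937), *Rrp9* (0.9935), *Taf5l* (0.9927) and *Epb41l1* (0.9916). In all, 120 of these genes (1.26%) had r of at least 0.95. Without *Gli3*+/+ replicate 3 the r of these 5 genes was 0.976, 0.988, 0.955, 0.979 and 0.945, in the same order.

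Levels can be compared between the enzymes only per length. Divided by the length of the principal transcript, *Hmgcs1* (13.4 CPM per kb), *Sqle* (13.3) and *Fdps* (12.7) had the highest means in *Gli3*+/+, and *Mvd* (3.15) and *Dhcr7* (3.03) the lowest. In *Gli3*Δ/Δ, *Fdps* (10.6 CPM per kb) and *Hmgcs1* (10.5) were highest and *Mvd* (3.23) lowest, with *Dhcr7* at 4.58. In *Gli3*+/+, neighbours in this order did not differ beyond the spread of their libraries, and the order rests on replicate 3. Over replicates 1 and 2 alone the means were 8.92 CPM per kb for *Hmgcs1*, 7.85 for *Fdps* and 7.07 for *Lss*, with *Idi1* at 4.56 and *Sqle* at 4.38, and *Dhcr7* remained lowest, at 2.93.

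The other genes of the pathway were taken from 7 lists with 56 genes. edgeR called 0 of the 56 (0.351% of all genes) and 4 had an unadjusted p under 0.05, about the share among all genes (7.11%). The log2 fold change was positive for 19 (45% of all genes) and negative for 37, with a median of −0.07. Without *Gli3*+/+ replicate 3 the balance of signs turned, with 31 of 56 positive (48.4% of all genes), a median of 0.04, 0 called and 5 at an unadjusted p under 0.05 (8% of all genes). In the mevalonate list 2 of 4 were positive (3 without that library), up to 0.31 for *Mvk*, mevalonate kinase. In the list of sterol steps 3 of 8 were positive (5 without that library), up to 0.45 for *Sc5d*, which acts just before *Dhcr7*. *Sc5d* was at 16.8, 14.3 and 20.2 CPM in *Gli3*+/+ and 23.5, 23 and 23.4 CPM in *Gli3*Δ/Δ. Its groups did not overlap (SE 0.16, adjusted p = 0.566 from edgeR). With *Gli3*Δ/Δ above, this was so for 2 of the 56, *Sc5d* and *Ggps1*, and for 7.74% of genes with a mean of at least 1 CPM.

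Some of these genes shared the high level in *Gli3*+/+ replicate 3. *Srebf2*, which encodes SREBP2, was at 169, 204 and 372 CPM in *Gli3*+/+ and at 246, 209 and 223 CPM in *Gli3*Δ/Δ. *Msmo1*, which acts on the methyl groups of the sterol ring, was at 8.19, 11 and 29 CPM in *Gli3*+/+ and at 8.85, 15.7 and 10.7 CPM in *Gli3*Δ/Δ. In all, 9 of the 56 were highest in this library by at least 1.5-fold (4.01% of genes), among them also *Pdss1*, *Stard4*, *Scarb1*, *Soat1* and *Fasn*.

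The remaining lists surround the pathway. In the isoprenoid branches 6 of 9 log2 fold changes were positive (7 without *Gli3*+/+ replicate 3), from −0.44 for *Pdss1*, which was at 0.03 without that library, to 0.24 for *Pdss2*. In the list of SREBP control 2 of 7 were positive (5 without it), from −0.22 for *Srebf1* to 0.13 for *Scap*, and in uptake and transport 2 of 8 (3 without it). In fatty acid synthesis 4 of 10 were positive (6 without it), from −0.66 for *Elovl6* to 0.29 for *Fads2*. *Elovl6*, a fatty acid elongase (adjusted p = 0.388 from edgeR), and *Scd1*, stearoyl-CoA desaturase (−0.44, adjusted p = 0.599 from edgeR), had an unadjusted p under 0.05. In efflux, storage and LXR targets, which act when sterols are high, 0 of 10 were positive (45% of all genes), from −1.29 for *Abcg1* to −0.02 for *Apoe*. Without *Gli3*+/+ replicate 3, 2 of the 10 were positive, *Soat1* (0.18) and *Apoe* (0.017).

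*Abcg1*, a sterol exporter, was at 7.33, 5.96 and 4.92 CPM in *Gli3*+/+ and 1.91, 3.16 and 2.34 CPM in *Gli3*Δ/Δ, without overlap. Its adjusted p was 0.133 from edgeR (SE 0.27) and 0.00109 from DESeq2, which called it. Beside it, the summed CPM of 5 Schwann cell markers was 88.2, 69 and 101 in *Gli3*+/+ and 32.7, 48.4 and 47.5 in *Gli3*Δ/Δ. All 5 were lower in *Gli3*Δ/Δ, 4 of them at an unadjusted p under 0.05 from edgeR, and 0 were called. The 4 mural cell markers summed to 96.4, 54.9 and 77.3 CPM in *Gli3*+/+ and to 36.2, 55.1 and 48.3 CPM in *Gli3*Δ/Δ, with 3 of 4 lower, and 2 of them, *Myh11* and *Rgs5*, at an unadjusted p under 0.05. The 6 macrophage markers summed to 26.1, 12.6 and 11.3 CPM and to 16.5, 12.9 and 10 CPM. Endothelial markers were lower for 3 of 4 and adipocyte markers for all 3 that were measured, while 1 of 4 myofiber markers was lower. Of all 31 markers of other cell types, 23 were lower, 6 of them at an unadjusted p under 0.05 from edgeR, and 0 were called. Over all 25093 genes, 13545 were lower, 982 of them at an unadjusted p under 0.05, and 0.351% were called. The 5 markers of fibro-adipogenic cells summed to 268, 173 and 416 CPM in *Gli3*+/+ and to 210, 284 and 211 CPM in *Gli3*Δ/Δ. Of these 5, 4 were lower in *Gli3*Δ/Δ, and *Dcn* was higher, at a log2 fold change of 0.35. *Col1a1* was highest in *Gli3*+/+ replicate 3, at 332 CPM. *Pdgfra*, at 1.65 CPM there, was close to its 1.73 CPM in *Gli3*+/+ replicate 2. The part of other cell types in these differences was not tested.

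**Figure D4:**
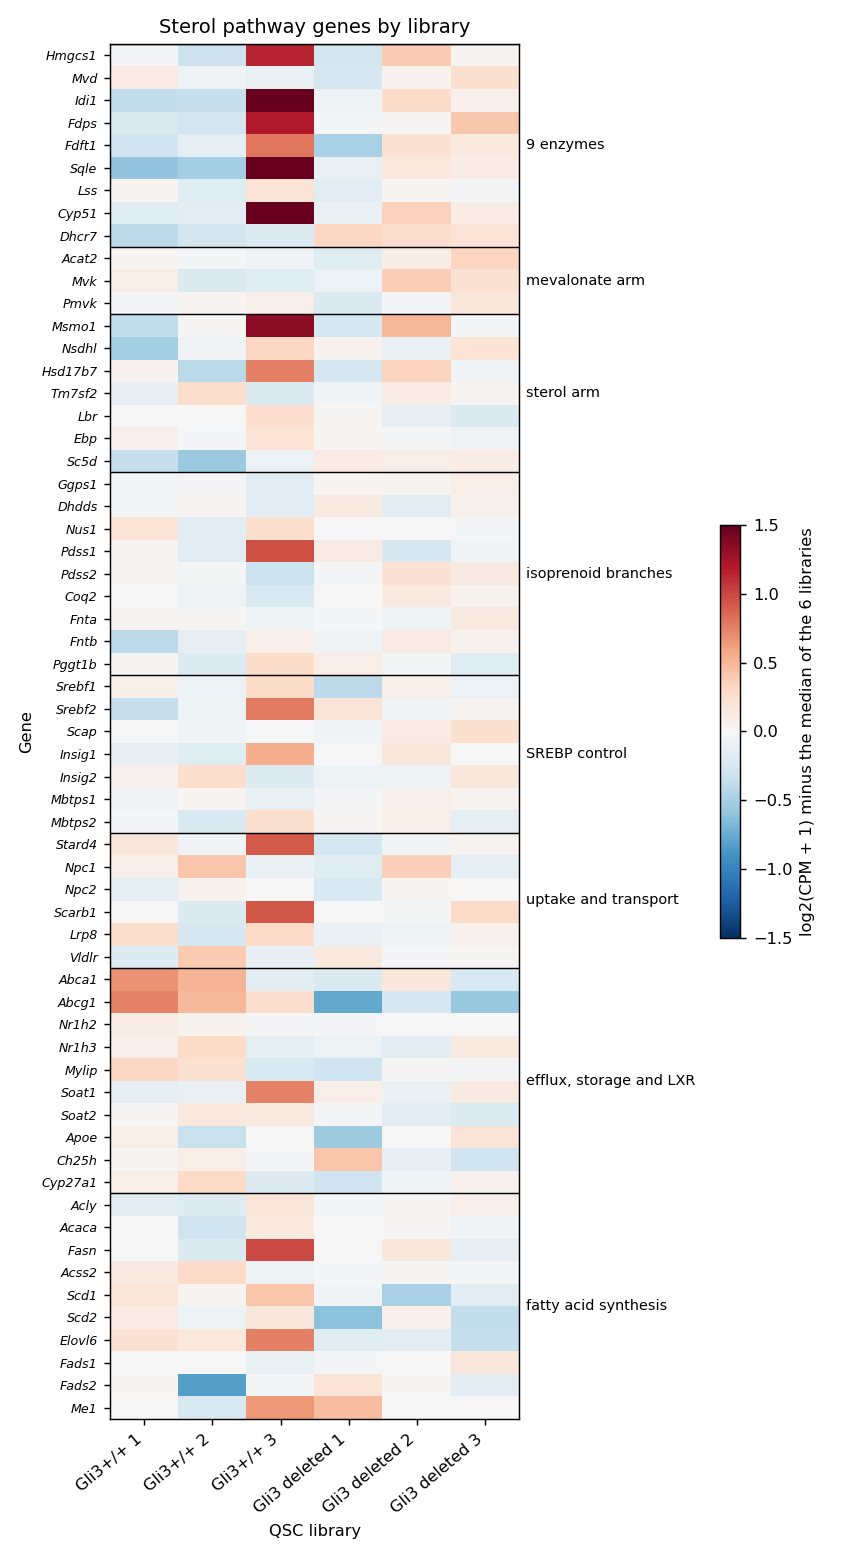
Level of the 9 enzymes and 52 other genes of the lists in each QSC library, as log2 of CPM + 1 minus the median of the gene over the 6 libraries (colour, where values past ±1.5 take the end colours). The column of *Gli3*+/+ replicate 3 is high for *Sqle*, *Idi1*, *Cyp51* and *Msmo1*, and *Dhcr7* is high in the 3 *Gli3*Δ/Δ columns.

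For ASCs, only the authors' mean normalized count over all 12 libraries was used, which does not separate genotypes or states. Divided by the mean of the 6 QSC libraries and relative to the median gene, it was above 1 for 8 of the 9 enzymes, from 1.38 for *Fdft1* to 2.06 for *Fdps*, and 0.815 for *Lss*. Among 13650 genes with an authors' mean of at least 100, these ratios ranked from the 72.8 to the 86.4 percentile, and that of *Lss* at the 30.8 percentile. With *Gli3*+/+ replicate 3 left out of the QSC mean the ratios ran from 1.51 for *Mvd* to 3.14 for *Sqle*, and that of *Lss* was 0.837. The authors' mean over 12 libraries still held replicate 3, which raises these ratios for genes high in that library. No error or test can be given for this pooled value.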

How the data were processed

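The authors mapped reads of polyadenylated RNA (20 ng of total RNA per library, stranded kit) with salmon to the GENCODE vM19 transcripts (GRCm38), summed them to genes with tximport and deposited estimated counts without normalization, after dropping genes that did not reach 5 mapped reads in 2 samples. Salmon shares reads between transcripts, and counts were rounded before testing. From the authors' 4 deposited comparison tables, whose fold changes and p-values were not used, only the mean signal per gene (counts divided by size factors, over 12 libraries) was taken. The 6 QSC columns carry sample titles. The 6 ASC columns match no label and were not used.

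Counts of the 6 QSC libraries were tested with edgeR 4.0.16 in R 4.3.3 (TMM, quasi-likelihood test, no further filter) over 25093 genes, and genes were called at a Benjamini-Hochberg adjusted p below 0.05 with a change of 1.2-fold or more. The alternatives tried were leaving out each library, blocking on replicate number, dropping the fold threshold, filtering by filterByExpr or to 10 or more counts per library, scaling by the size factors of DESeq2, and testing with DESeq2 1.42.0 or with limma 3.58.1 (voom, weighted by sample quality). DESeq2 and limma-voom without *Gli3*+/+ replicate 3, and the list counts, levels per length and ratios without it, were added after the values were seen. The tests were checked on simulated counts. The members and lists were chosen with earlier results of these data known. All 9 members are named, and of the other lists the lowest and highest log2 fold change and genes at an unadjusted p under 0.05. Genes high in *Gli3*+/+ replicate 3, genes called by DESeq2 and *Ggps1* were added after their values were seen. Results for some of these other genes are not reported here. Gene positions were read from GENCODE vM21 (GRCm38), in which 96.3% of the identifiers had an unchanged version.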

Additional observations from a re-analysis of the deposited data

How the results depend on the processing

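The count of genes called between the genotypes was 88 with edgeR, 384 with DESeq2, 48 with at least 10 counts in every library and 58 to 103 with each library left out. Without *Gli3*+/+ replicate 3 it was 37 with limma-voom and 499 with DESeq2. Of the 9 enzymes, DESeq2 called 1 (1.55% of the genes it tested), and 2 without *Gli3*+/+ replicate 3 (2.01%). Of the 56 other pathway genes it called 1, *Abcg1*, and 3 without that library. These 3 were *Abcg1* (log2 fold change −1.42), *Abca1* (−0.68) and *Sc5d* (0.58), with adjusted p of 0.000416, 0.00556 and 0.00696 from DESeq2. The median log2 fold change of the enzymes, −0.27, ran from −0.53 to 0.32 when each library was left out of the edgeR fit, and was 0.11 with limma-voom and 0.34 with limma-voom without *Gli3*+/+ replicate 3.

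With limma-voom and sample quality weights, which gave *Gli3*+/+ replicate 3 a weight of 0.434 against 0.899 to 1.51 for the others, the log2 fold change turned positive for *Hmgcs1* (0.075), *Idi1* (0.20), *Fdps* (0.21), *Fdft1* (0.11), *Sqle* (0.30) and *Cyp51* (0.074). Leaving out each library in turn with edgeR gave −0.60 to 0.24 for *Hmgcs1*, −0.10 to 0.18 for *Mvd*, −1.04 to 0.48 for *Idi1*, −0.53 to 0.42 for *Fdps*, −0.43 to 0.23 for *Fdft1*, −1.37 to 0.65 for *Sqle*, −0.17 to 0.024 for *Lss*, −1.02 to 0.32 for *Cyp51* and 0.54 to 0.65 for *Dhcr7*. The values without *Gli3*+/+ replicate 3 from edgeR were 0.24 for *Hmgcs1*, −0.013 for *Mvd*, 0.48 for *Idi1*, 0.42 for *Fdps*, 0.23 for *Fdft1*, 0.65 for *Sqle*, 0.024 for *Lss* and 0.32 for *Cyp51*. Without the same library DESeq2 gave 0.24 for *Hmgcs1*, −0.015 for *Mvd*, 0.48 for *Idi1*, 0.42 for *Fdps*, 0.23 for *Fdft1*, 0.65 for *Sqle*, 0.022 for *Lss* and 0.32 for *Cyp51*, and limma-voom 0.29 for *Hmgcs1*, 0.50 for *Idi1*, 0.43 for *Fdps*, 0.25 for *Fdft1*, 0.66 for *Sqle*, 0.055 for *Lss* and 0.34 for *Cyp51*.

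In a separate check of pairing, same-numbered libraries of the genotypes had correlations of −0.276, −0.0196 and −0.0642, and libraries with unlike numbers −0.241 to 0.329. These values are not the correlations of levels over all genes given above, which were 0.9831 or more for every pair of libraries. They do not measure how alike the libraries were in level. The labels do not say whether the numbers pair the libraries, and so few correlations cannot decide it. With the replicate block 79 genes and 0 of the enzymes were called, and the median of the enzymes was −0.17. The cause of these shifts was not tested. With 3 libraries per group a difference the size of that of *Dhcr7* was called by DESeq2 and not by edgeR or limma-voom.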
